A study of Mus musculus with 57 samples.

Results

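SOX2 and SOX17 belong to 1 family of transcription factors (TFs) that read DNA through an HMG domain. Here the regions bound by SOX2 in mouse embryonic stem (ES) cells at 0 h were set against those bound by SOX17 after 24 h of differentiation towards primitive endoderm (PrE). The comparison rests on 4 of the 57 samples of the series, 2 peak lists for each protein. A region was counted for a protein when it held a peak of both of its lists, which gave 17260 SOX2 regions and 19251 SOX17 regions among 75542 merged regions of the 4 lists. A region was shared when it overlapped a region of the other protein by 1 bp or more, SOX2-only or SOX17-only when it overlapped no peak of the other protein in either list, and partial otherwise. There were 6035 shared loci, 8665 SOX2-only regions and 10276 SOX17-only regions.

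All groups were KH2 ES cells of strain C57BL/6, an established line with a single-copy TRE:GATA6-DSREd2 transgene from which doxycycline switches on GATA6 and a red reporter. The 0 h cells had no doxycycline and were kept in 2i medium with LIF. The 24 h cells had doxycycline (1 µg/mL) for 12 h in serum medium with LIF and then 12 h of serum medium without it. Other SOX2, NANOG and GATA6 lists of 2, 4 or 8 h came from cells under doxycycline in serum medium, and NANOG at 0 h and GATA4 at 24 h were treated as the SOX2 and SOX17 samples were. Binding was mapped by CUT&RUN, in which an antibody guides a nuclease to the bound protein and the released fragments are sequenced. The protein, the antibody, the time and the medium changed together between SOX2 at 0 h and SOX17 at 24 h, and their parts cannot be told apart. The study describes its replicates as independent, but no source used here says whether they were separate cultures, so the spread between lists may be partly technical.

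SOX2 works with the POU factor POU5F1 (OCT4) to hold the pluripotent state of ES cells and of the epiblast (Epi). SOX17 is made in the PrE, the extraembryonic layer that lines the blastocyst cavity, and later in definitive endoderm. Both bind the same short SOX element, and SOX factors are known to differ in how they pair with a POU factor on a composite of a SOX and a POU element. In the canonical composite 1 free base separates the elements and in the compressed composite they touch. The canonical form is known for the SOX2-POU5F1 pair and the compressed form for the SOX17-POU5F1 pair.

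The composites were searched as letters on both strands of mm10, in the 201 bases centred on each summit. The canonical form was TTGT followed by 1 free base and ATGCAA, and the compressed form was TTGT followed directly by ATGCAA. The 4 SOX2-only regions of highest fold with a canonical match are printed so that the arrangements can be read side by side. Each runs 5′ to 3′ on the strand of the match (RefSeq GRCm38.p6, the build of mm10), with the match in capitals.
Gm12166, chr11:46020463-46020513, plus strand: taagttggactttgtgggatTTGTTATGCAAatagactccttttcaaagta
Nmur2, chr11:55946841-55946891, minus strand: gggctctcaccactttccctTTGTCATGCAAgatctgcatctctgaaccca
1700012A03Rik, chr6:31948272-31948322, minus strand: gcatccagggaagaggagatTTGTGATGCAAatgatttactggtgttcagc
Tcf7, chr11:52286549-52286599, plus strand: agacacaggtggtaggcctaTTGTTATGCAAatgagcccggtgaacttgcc
The gene is the one with the nearest protein-coding transcription start site (TSS), and all 4 sites were intergenic. The Gm12166 site lay 31854 bp from the TSS and had SOX2 folds of 24.4 and 18.1, where fold is the coverage at the summit over the background that the peak caller estimated. The Nmur2 site lay 94219 bp away with folds of 18.9 and 11.8, and the 1700012A03Rik site 101988 bp away with folds of 17.6 and 10.1. The site 3560 bp from Tcf7, the gene of a TF of the Wnt pathway, had folds of 15.4 and 11.9.

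The 4 SOX17-only regions of highest fold with a compressed match show the same letters without the free base.
Haao, chr17:83989149-83989198, plus strand: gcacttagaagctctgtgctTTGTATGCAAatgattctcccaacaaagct
Enc1, chr13:97442930-97442979, minus strand: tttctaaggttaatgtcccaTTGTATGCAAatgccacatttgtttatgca
Cartpt, chr13:99804268-99804317, minus strand: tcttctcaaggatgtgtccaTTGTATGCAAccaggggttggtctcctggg
Nrf1, chr6:30044806-30044855, minus strand: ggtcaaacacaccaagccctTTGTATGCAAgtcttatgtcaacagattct
These were intergenic as well, at 142276, 201902, 96345 and 3216 bp from the TSS. The SOX17 folds were 28.2 and 30.3 at Haao, 19.7 and 31.0 at Enc1, 17.5 and 28.2 at Cartpt, and 15.3 and 21.9 at Nrf1, the gene of a TF of mitochondrial genes.

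Shared loci with a canonical match form another set, since SOX17 also had a peak at these SOX2-type sites.
Elk3, chr10:93364588-93364638, minus strand: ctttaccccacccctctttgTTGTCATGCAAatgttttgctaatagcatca
Pipox, chr11:77894035-77894085, plus strand: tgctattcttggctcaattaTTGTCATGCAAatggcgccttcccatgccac
The Elk3 locus, 53415 bp from the TSS, had SOX2 folds of 21.7 and 18.2 and SOX17 folds of 26.2 and 20.2. The Pipox locus, at a promoter 61 bp from the TSS, had SOX2 folds of 30.7 and 15.6 and SOX17 folds of 8.72 and 16.5.

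The canonical composite was more frequent in SOX2-only regions and the compressed composite in SOX17-only regions. A canonical match lay in 38 of 8665 SOX2-only regions (0.439%, 95% Wilson interval 0.320 to 0.601) and in 3 of 10276 SOX17-only regions (0.0292%, 0.00993 to 0.0858). A compressed match lay in 27 SOX17-only regions (0.263%, 0.181 to 0.382) and in 5 SOX2-only regions (0.0577%, 0.0246 to 0.135). Of 32817 RefSeq promoter windows of the same length, 0.113% held the canonical and 0.0396% the compressed match. The intervals cover counting error only, and regions of 1 library are not replicates.

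The shorter POU element ATGC, which takes in every longer match, gave the same order on larger counts. The canonical form lay in 314 SOX2-only regions (3.62%, 3.25 to 4.04) and 49 SOX17-only regions (0.477%, 0.361 to 0.630). The compressed form lay in 140 SOX17-only regions (1.36%, 1.16 to 1.61) and 39 SOX2-only regions (0.450%, 0.329 to 0.615). Promoter windows held the forms in 0.533% and 0.262%. Spacers of 2 to 10 bases gave 0.612% to 1.10% in SOX2-only and 0.418% to 0.973% in SOX17-only regions. Of the 11 spacers searched, 1 free base had the highest share in SOX2-only regions and 0 free bases in SOX17-only regions. Shared regions had their highest share at 1 free base too, with 2.21% canonical and 0.428% compressed around the SOX2 summit and 1.76% and 0.521% around the SOX17 summit.

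**Figure D1:**
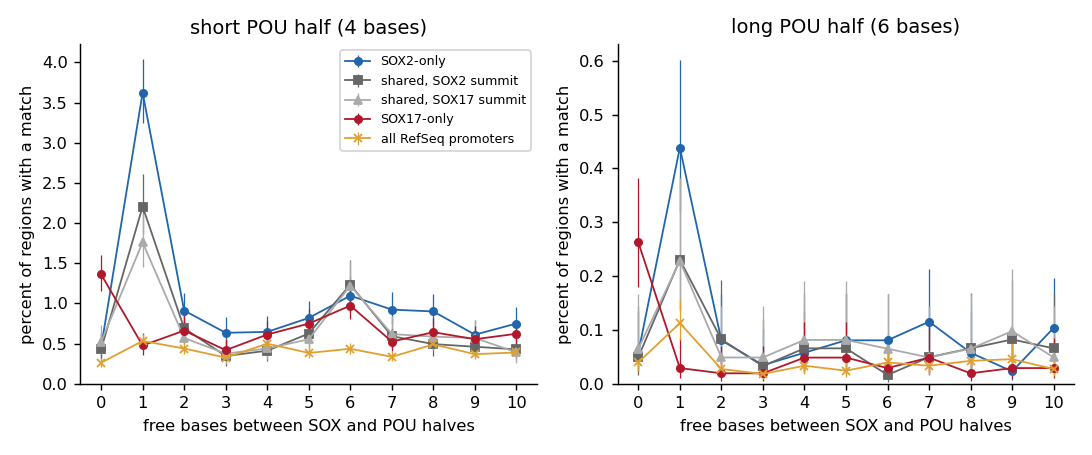
Percent of regions with a SOX and a POU element (y axis) against the number of free bases between them (x axis), by class and for both lengths of the POU element. Bars are 95% Wilson intervals. With the short POU element the SOX2-only line peaks at 1 free base (3.62%) and the SOX17-only line at 0 (1.36%).

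Peaks of the single lists inside these regions had similar shares, which the class rule fixes in part, since each region holds a peak of both lists. Short canonical matches were in 3.29% and 3.76% of SOX2-only peaks (replicates 1 and 2) and in 0.440% and 0.451% of SOX17-only peaks, and short compressed matches in 0.401% and 0.456% against 1.29% and 1.5%. The values of 2 lists therefore do not measure replication, and 2 lists against 2 allow no exact permutation p under 0.333. With 1 list alone defining a protein's regions the differences in long matches kept their direction but shrank. The canonical difference (SOX17 minus SOX2) was -0.42 percentage points with all lists and -0.246 without SOX2 replicate 2. The compressed difference was 0.207 points with all lists, 0.118 without SOX17 replicate 1 and 0.0995 without SOX17 replicate 2.

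A test with more lists used the 5000 peaks of smallest q-value of 8 SOX2 lists (0, 2, 4 and 8 h) and of the 2 SOX17 lists. The SOX2 lists of different times are not replicates of 1 condition. Canonical matches were in 0.460% and 0.480% of SOX2 peaks at 0 h, in 0.40% to 0.54% over the 8 SOX2 lists, and in 0.0600% and 0.0800% of SOX17 peaks. Compressed matches were in 0.0400% to 0.0800% of SOX2 peaks and in 0.22% and 0.24% of SOX17 peaks. Both differences had an exact permutation p of 0.0222 (two-sided, 45 arrangements, the smallest they can give), or 0.0267 after Benjamini-Hochberg adjustment over the 6 measures tested. Both SOX17 lists lay outside the range of all 8 SOX2 lists. For the short forms the SOX2 lists held 2.96% to 4.76% canonical and 0.36% to 0.80% compressed matches, and the SOX17 lists 0.84% and 0.90%, and 1.32% and 1.34%.

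Regions with a composite fell differently among the classes. Of the 525 SOX2 regions with a short canonical match 59.8% were SOX2-only, against 50.2% of all SOX2 regions. Of the 191 SOX17 regions with a short compressed match 73.3% were SOX17-only and 16.8% shared, against 53.4% and 31.9% of all SOX17 regions. The 178 SOX17 regions with a short canonical match ran the other way, with 60.7% shared and 27.5% SOX17-only. By quintile of fold, the canonical share of SOX2-only regions was 2.71% (2.05 to 3.59) in the lowest and 5.60% (4.61 to 6.78) in the highest, and the compressed share of SOX17-only regions 0.827% (0.517 to 1.32) and 1.65% (1.19 to 2.30).

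The lone SOX element did not separate the classes. CATTGT or CTTTGT lay in 46.4% of SOX2-only, 48.1% of SOX17-only and 43.8% of shared regions (SOX2 summit), and in 20.7% of promoter windows.

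GATA elements, the sites of GATA4 and GATA6, were frequent in SOX17-only regions. A match (A or T, then GATA, then A or G) lay in the window of 53.8% of SOX17-only regions (52.9 to 54.8), 24.2% of SOX2-only regions (23.3 to 25.1), 26.1% of shared regions at the SOX2 summit and 21.5% of promoter windows. At least 2 matches were in 22.4% of SOX17-only and 3.21% of SOX2-only regions. Peaks of the single lists inside these regions held it in 51.7% and 54.7% for SOX17-only and 24.0% and 24.3% for SOX2-only, a difference of 29.1 points that was 20.5 to 26.5 points when 1 list was left out. Between the lowest and highest quintile of fold the share went from 48.2% to 61.0% in SOX17-only regions, and was 23.3% and 24.4% in SOX2-only regions.

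The GATA content of the SOX17 peaks was inside the range of the SOX2 lists once the later times were included. Among the top 5000 peaks it was 25.2% and 27.7% for SOX2 at 0 h, 45.4% and 45.3% at 2 h, 54.4% and 56.4% at 4 h, and 60.7% and 63.7% at 8 h, against 44.2% and 48.4% for SOX17. The 10-list comparison gave an exact permutation p of 0.956. SOX2 at 0 h thus had the lowest 2 values of the 10 lists.

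**Figure D2:**
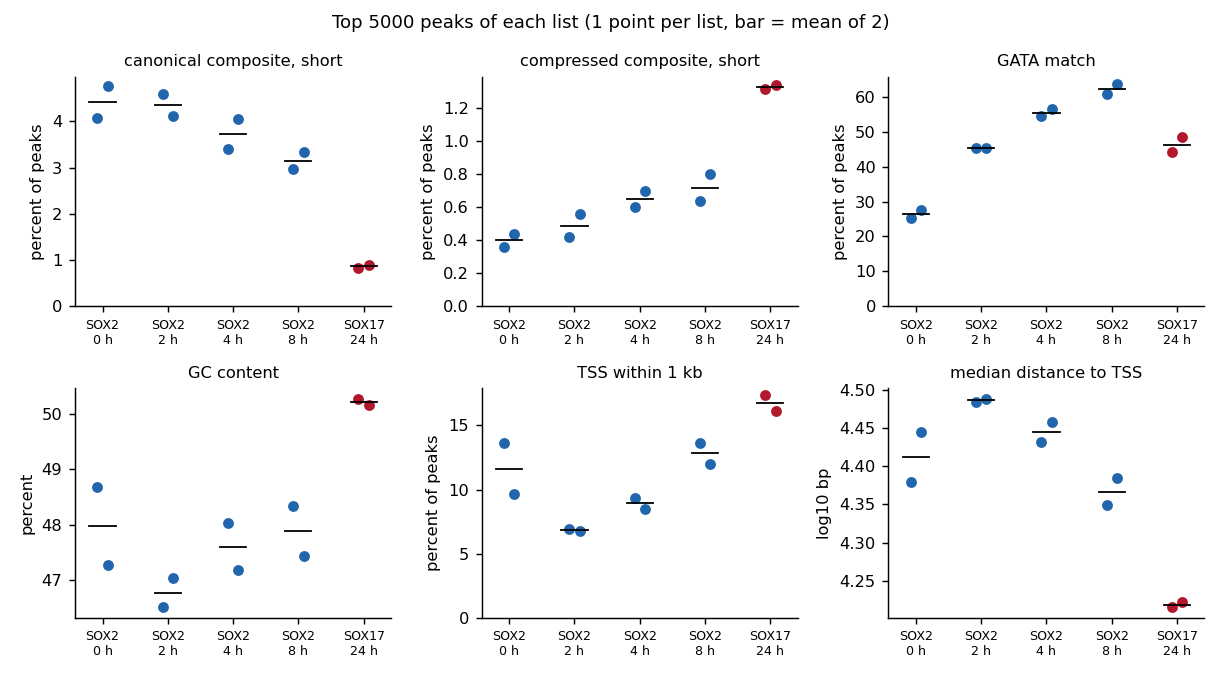
Measures (y axes, with units) of the top 5000 peaks of each SOX list, by protein and time (x axis). The composite panels show matches with the short POU element ATGC, not the longer element of the adjusted test. Each point is 1 list and each bar the mean of 2. The SOX17 points lie outside the SOX2 points in every panel but the GATA match, where they are at 44.2% and 48.4%.

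Of SOX2 regions 35.2% were shared, 14.6% partial and 50.2% SOX2-only, and of SOX17 regions 31.9%, 14.7% and 53.4%. The balance of the only classes depended on the lists, with 9191 SOX2-only and 28895 SOX17-only regions without SOX17 replicate 1, and 19882 and 11395 without SOX2 replicate 2. Replicates of a protein overlapped more than the proteins did. Between 54.9% and 65.4% of the peaks of a SOX2 list met the other SOX2 list, 46.7% to 72.0% of a SOX17 list met the other SOX17 list, and 27.4% to 37.1% of a SOX2 list met a SOX17 list. For the top 10000 peaks of every list these shares were 69.7% to 69.9%, 75.8% to 76.2% and 26.9% to 28.3%.

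The SOX17 libraries were estimated to be deeper. Read totals are not in the lists, and the read numbers that the paper places in its supplement were not used for this. Recurring values of fold and p give an estimate of the background coverage in the peak caller's Poisson model. This came to 0.416 and 0.575 fragments per base for SOX2 and 1.23 and 1.55 for SOX17, a ratio of means of 2.81, and rests on 12 to 15 of the 30 value pairs searched in each list. The names of the SOX17 lists also carry the word merged, with no source used here saying what was merged. The numbers of peaks overlapped all the same, with 31695 and 26826 for SOX2 (29260.5 ± 3443, SD, n = 2) and 27328 and 41979 for SOX17 (34653.5 ± 10360), a log2 difference of 0.22 (exact permutation p = 0.667). Beyond the equal numbers of top peaks, the part of depth in the class sizes was not tested.

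Shared regions had the higher fold in every list. The median fold of shared regions was 8.41 and 8.25 in the SOX2 lists, against 7.06 and 7.13 in SOX2-only regions. In the SOX17 lists it was 7.16 and 8.41 against 5.79 and 6.47. By quintile of mean fold the shared part went from 25.8% to 49.1% of SOX2 regions and from 20.9% to 48.8% of SOX17 regions. Even so, 37.2% of the highest SOX2 quintile and 39.7% of the highest SOX17 quintile were only regions.

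**Figure D3:**
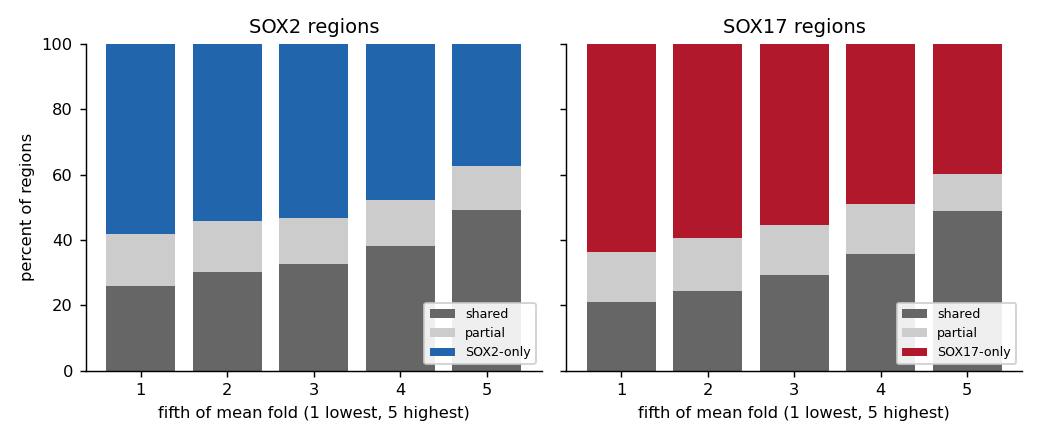
Shared, partial and only regions (y axis, percent) by quintile of mean fold (x axis, 1 lowest and 5 highest) for SOX2 (left) and SOX17 (right). The shared part goes from 25.8% to 49.1% for SOX2 and from 20.9% to 48.8% for SOX17.

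Within the shared loci the folds of the 2 proteins were only loosely related. Across 6035 loci the log2 folds of SOX2 and SOX17 had a Pearson r of 0.31 and a Spearman rho of 0.29, and replicates had an r of 0.78 for SOX2 and 0.83 for SOX17. These describe loci that share libraries and are not independent replicates. The 5 strongest shared loci show the range. In an intron 51573 bp from the TSS of Tanc1 (chr2:59697087-59699623) the SOX17 folds were 178 and 183 and the SOX2 folds 23.5 and 31.7. By contrast an intergenic locus 31542 bp from Gpr37l1 (chr1:135198517-135200854) had SOX2 folds of 65.4 and 54.0 and SOX17 folds of 61.0 and 51.5. The loci assigned to Nkain1 (SOX2 60.5 and 48.3, SOX17 70.6 and 99.2), Foxk1 (42.7 and 44.0, 91.9 and 78.1) and Ptgs1 (42.7 and 34.9, 51.1 and 81.6) had SOX17 folds above both SOX2 folds. Folds of the 2 proteins come from different antibodies and depths, so they are set side by side without a test.

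Summits of SOX2 and SOX17 in shared loci lay close together, though less close than those of replicates. The median distance was 70 bp between the SOX2 lists, 56 bp between the SOX17 lists, and 85, 81, 82 and 77 bp in the 4 pairs between the proteins. Summits were within 100 bp in 63.4% and 68.5% of loci for replicates and in 55.9% to 58.9% between proteins. They were more than 500 bp apart in 1.97% and 1.33% against 4.41% to 4.81%. Matches with the short POU element within 200 bp of a summit were measured too. In SOX2-only regions their median distance was 80 bp for the canonical and 90.5 bp for the compressed form. In SOX17-only regions it was 118.5 bp for the canonical and 78.5 bp for the compressed form.

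SOX2-only regions lay farther from the nearest protein-coding TSS than SOX17-only and shared regions. The median distance to a protein-coding TSS was 29599 bp for SOX2-only and 10367 bp for shared regions (SOX2 summit), with SOX17-only regions between them at 17990.5 bp. Partial regions had medians of 15209 bp for SOX2 and 7130.5 bp for SOX17, the latter nearer than shared regions, with 21.3% and 34.8% within 1 kb. Within 1 kb of a TSS were 7.34% of SOX2-only (6.81 to 7.91), 11.1% of SOX17-only (10.5 to 11.7) and 29.5% of shared regions (28.4 to 30.7). More than 50 kb away were 38.3%, 25.4% and 21.6%. Introns held 37.5%, 40.8% and 28.1%, exons 2.75%, 2.73% and 1.99%, and 52.4%, 45.4% and 40.4% were intergenic.

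The difference between SOX17-only and SOX2-only peaks within 1 kb of a TSS depended on the lists. It was 3.75 points with all lists, 6.09 without SOX2 replicate 1, 1.89 without SOX2 replicate 2, 2.86 without SOX17 replicate 1 and 1.96 without SOX17 replicate 2, SOX17-only being higher each time. Over the 10 lists the share was 6.80% to 13.7% for SOX2 and 17.4% and 16.1% for SOX17, with an exact permutation p of 0.0267 after adjustment. With the top 10000 peaks the adjusted exact permutation p was 0.0533, and with all peaks 0.24. The median log10 distance was 4.35 to 4.49 for SOX2 and 4.22 and 4.22 for SOX17 (exact permutation, adjusted p = 0.0267). The GC content around the summit was 46.5% to 48.7% for SOX2 and 50.3% and 50.2% for SOX17 (exact permutation, adjusted p = 0.0267). As for the composites, these p-values treat lists that share a condition as exchangeable. GC content, promoter share and depth moved together between the proteins, and their parts were not tested.

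**Figure D4:**
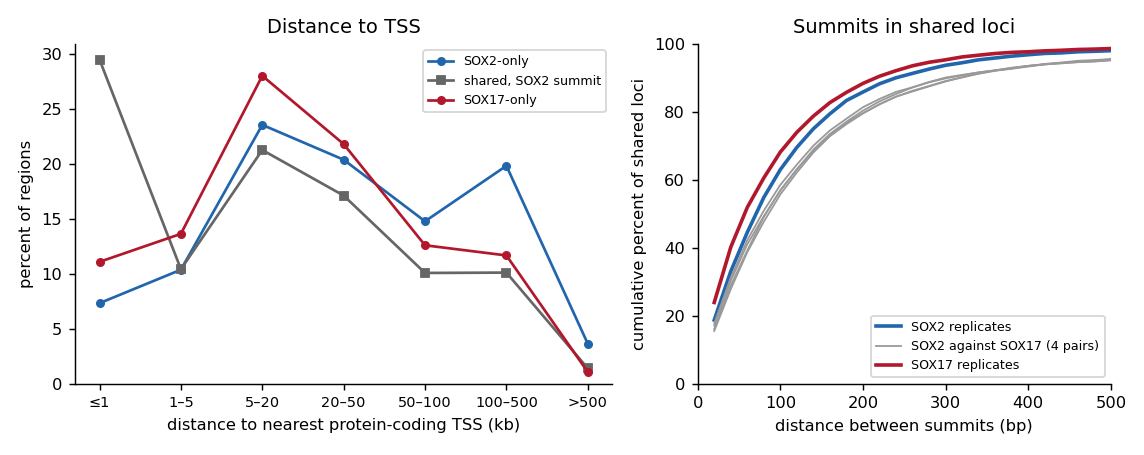
Left, percent of regions (y axis) by distance to the nearest protein-coding TSS in kb (x axis), with 29.5% of shared, 7.34% of SOX2-only and 11.1% of SOX17-only regions within 1 kb. Right, cumulative percent of shared loci (y axis) by distance between summits in bp (x axis), for replicates (medians 70 and 56 bp) and for the 4 pairs between proteins (77 to 85 bp).

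Lists of other TFs differed between the classes. NANOG, a TF of the pluripotent state, had a peak at 0 h in 39.6% and 52.7% of SOX2-only regions, in 40.5% and 54.2% of shared loci and in 0.905% and 2.14% of SOX17-only regions. GATA4, a TF of the PrE, had a peak at 24 h in 25.2% and 17.4% of SOX17-only regions, in 24.4% and 14.5% of shared loci and in 0.739% and 0.196% of SOX2-only regions. By definition SOX17-only regions hold no SOX2 peak at 0 h and SOX2-only regions no SOX17 peak at 24 h. The paper reports strong SOX2 binding where NANOG is bound and a large overlap of GATA4 and SOX17 targets. How far the class rule sets the low NANOG and GATA4 shares was not tested. GATA6 at 2 h was at 69.5% and 56.4% of SOX2-only regions, 93.2% and 86.4% of shared loci and 55.1% and 45.3% of SOX17-only regions. These lists had very different lengths, with 79358 and 62683 peaks for GATA6 and 8427 and 4006 for GATA4, so shares are compared between classes within a list.

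Later SOX2 lists met the classes to different degrees. At 2 h SOX2 had a peak in 44.0% and 66.5% of SOX2-only regions, at 4 h in 57.3% and 34.7%, and at 8 h in 13.7% and 10.9%. In shared loci the 8 h shares were 58.9% and 55.4%. At SOX17-only regions, which hold no SOX2 peak at 0 h by definition, the shares were 14.1% and 27.9% at 2 h, 37.0% and 22.8% at 4 h, and 20.2% and 18.7% at 8 h. At 8 h both SOX2 lists thus met a larger share of SOX17-only than of SOX2-only regions, the reverse of the order at 2 h. The 8 h lists were the shortest SOX2 lists, with 14055 and 11540 peaks.

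**Figure D5:**
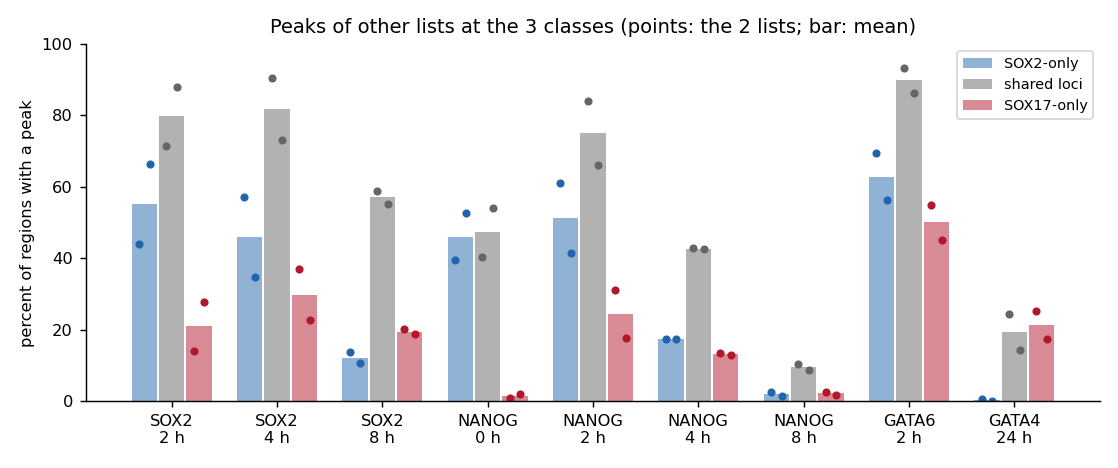
Percent of regions with a peak of another list (y axis) for each protein and time (x axis), by class. Points are the 2 lists and bars their mean. NANOG at 0 h is at 0.905% and 2.14% of SOX17-only regions, and GATA4 at 24 h at 0.739% and 0.196% of SOX2-only regions.

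The SOX17-only regions met by SOX2 at 8 h held more GATA sites than the rest. Both 8 h lists had a peak in 1368 of them (13.3%), of which 76.8% (74.4 to 78.9) held a GATA match and 95.2% had GATA6 at 2 h in both lists. Of the other 8908 these were 50.3% and 34.0%. The other classes differed in the same direction between regions met by both 8 h lists and the rest. A GATA match lay in 34.3% against 23.5% of SOX2-only regions and in 36.1% against 24.6% of shared loci. GATA6 at 2 h in both lists was at 91.3% against 50.3% of SOX2-only regions and 95.6% against 76.1% of shared loci. SOX17-only regions with GATA6 at 2 h in both lists numbered 4332, with a GATA match in 66.2% and a short compressed composite in 0.923% (0.679 to 1.25). Of the others 44.8% and 1.68% (1.39 to 2.04) held them. GATA4 in both 24 h lists marked 1545 SOX17-only regions, 76.1% of them with a GATA match.

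Genes with an only region of one protein had one of the other more often than all genes did. Each SOX2-only, shared and SOX17-only region was assigned to the gene of the nearest TSS within 50 kb. Of 21829 protein-coding genes 18.3% had a SOX2-only, 16.4% a shared and 20.2% a SOX17-only region. Partial regions were not counted near genes, so a gene without a given class may still hold a partial region. The 1209 genes with both kinds of only region were 30.3% of the genes with a SOX2-only region, against 20.2% of all genes with a SOX17-only region, and 27.4% of those with a SOX17-only region, against 18.3% of all genes. These shares were not tested. SOX2-only regions lay a median of 49480 bp from the nearest SOX17 region, and SOX17-only regions 25253 bp from the nearest SOX2 region.

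Most PrE genes had SOX17-only regions. Of 30 PrE genes 25 (83.3%) had at least 1, against 20.2% of all protein-coding genes, and the 131 regions came to 4.37 per gene against 0.351. SOX2-only and shared regions were near 9 (30.0%) of the 30 each, against 18.3% and 16.4% of all genes. In 13 genes SOX17-only was the sole class of those counted, partial regions left aside. Among these, the TF genes Gata6 and Gata4 had 6 regions each, Sox17 4, Sox7 2 and Foxa2 11, Dab2, the gene of an endocytic adaptor, had 6, and Col4a1, the gene of a basement membrane collagen, had 15. Cubn and Lrp2, which encode endocytic receptors of visceral endoderm, had 9 and 3. Pdgfra, the gene of a receptor that marks PrE cells, had 10 SOX17-only and 4 shared regions. Fgfr1, the gene of an FGF receptor, ran the other way with 4 SOX2-only and 1 shared region, and Afp, Apoa1 and Cited1 had no region of these classes. Of 570 PrE genes that the study took from published single-cell data, 52.8% had a SOX17-only, 29.5% a shared and 21.6% a SOX2-only region. The shares of all genes were 20.2%, 16.4% and 18.3%, and the differences were not tested.

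Pluripotency genes held all 3 classes. Of 30 genes 19 (63.3%) had a SOX2-only, 19 a shared and 18 (60.0%) a SOX17-only region. The shares of all protein-coding genes were 18.3%, 16.4% and 20.2%. Both kinds of only region were near 13 of the 30. Among these classes, Sox2, Fgf4, Nr0b1 and Gdf3 had SOX2-only regions alone. The TF gene Klf4 (4 regions) and Dppa4 (5) had SOX17-only regions alone. Partial regions were not counted. Of the study's 218 Epi genes, 52.3% had a SOX2-only, 54.6% a shared and 39.9% a SOX17-only region. No difference from the shares of all genes was tested.

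Of 20 genes of the SOX family 9 (45%) had a SOX2-only, 3 (15.0%) a shared and 5 (25.0%) a SOX17-only region, against 18.3%, 16.4% and 20.2% of all genes, with no test of the difference. For 8 of them, Sox2, Sox4, Sox5, Sox6, Sox11, Sox14, Sox21 and Sox30, SOX2-only was the sole class of those counted. Sox2 had 2 SOX2-only regions and Sox17 had 4 SOX17-only regions, each from the protein the gene encodes. A SOX2-only region was near 7 (43.8%) of 16 trophectoderm genes and a SOX17-only region near 6 (37.5%). For 13 genes of mesoderm and definitive endoderm these were 5 (38.5%) and 4 (30.8%). For 14 neural genes they were 5 (35.7%) and 4 (28.6%), and for 12 blood and muscle genes 0 and 2 (16.7%). The shares of all genes were 18.3% and 20.2%. In lists this short a share rests on few genes, and the differences were not tested.

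At PrE genes the strongest SOX17-only regions ranged widely in fold. An intronic region 6014 bp from Gata4 (chr14:63263824-63266281) had SOX17 folds of 35.3 and 17.3, and one 4785 bp from Col4a1 (chr8:11316937-11317984) had 28.4 and 30.7. Lama1, a laminin gene, had an intergenic region (chr17:67683005-67683862) with 22.7 and 30.8, Pdgfra one (chr5:75136882-75139068) with 22.4 and 28.9, and Foxa2 one (chr2:148039971-148041644) with 20.9 and 26.8. The strongest regions of Sox17 (9.14 and 15.5), Dab2 (8.06 and 8.8) and Sox7 (7.24 and 5.91) had lower folds. In the 13 genes with a SOX17-only region among the 15 fixed by name, pluripotency genes included, the strongest one had GATA6 at 2 h in both lists in 11, GATA4 at 24 h in both in 7 and SOX2 at 8 h in both in 5, where the whole class had 42.2%, 15.0% and 13.3%. None had NANOG at 0 h, which was at 0.905% and 2.14% of the class. These regions were picked by fold, while the class holds regions of every fold, so the shares are not like for like. Over the class the median fold was 6.58 in regions with GATA6 at 2 h in both lists and 5.83 in the others.

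Fgf4 and Sox2 had SOX2-only regions and no shared or SOX17-only ones, with partial regions not counted. Fgf4, the growth factor by which Epi cells signal to PrE precursors, had 3 SOX2-only regions. The strongest, over an exon 3077 bp from the TSS (chr7:144863918-144865324), had SOX2 folds of 18.4 and 15.1 and NANOG at 0 h in both lists. The stronger Sox2 region (chr3:34653768-34654313), 3694 bp from the TSS, had 8.48 and 11.4. Esrrb, which encodes an orphan nuclear receptor of the pluripotent state, had 5 SOX2-only and 5 SOX17-only regions and no shared one. The strongest of each were in introns, 3721 bp from the TSS with SOX2 folds of 9.18 and 7.62 and 3682 bp from it with SOX17 folds of 5.55 and 14.1.

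At Pou5f1 and Nanog both proteins had a peak at an upstream locus. Their folds come from different antibodies and depths and are set side by side without a test. Pou5f1, the gene of OCT4, had 4 shared loci. The one 3228 bp upstream (chr17:35501723-35503214) had SOX17 folds of 48.3 and 54.2 and SOX2 folds of 6.91 and 9.63. The next, 1841 bp upstream (chr17:35503508-35505825), had 10.5 and 22.7 for SOX17 and 11.4 and 16.6 for SOX2, so that the proteins overlapped there. They also overlapped at the locus 15413 bp upstream, with 6.72 and 5.73 for SOX17 and 7.79 and 5.15 for SOX2. So they did at a locus with 5.61 and 7.92 for SOX17 and 5.41 and 8.42 for SOX2. This locus lay 723 bp downstream of its nearest Pou5f1 TSS, which is not the TSS used for the upstream loci. The Nanog locus 4713 bp upstream (chr6:122702088-122704012) had SOX2 folds of 40.7 and 41.6 and SOX17 folds of 20.7 and 19.6.

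The strongest SOX2-only regions were assigned to Slc9a9 (7940 bp from the TSS, chr9:94661287-94662816, SOX2 folds 69.9 and 87.6), Eif4e2 (44.9 and 48.5), Fbxo15 (45.2 and 41.9), Slc6a5 (48.0 and 38.1) and Dnajb9 (45.9 and 37.6). All 5 had NANOG at 0 h and GATA6 at 2 h in both lists and GATA4 in neither, and 4 had SOX2 at 8 h in both. The Fbxo15 and Dnajb9 regions were 537951 and 997788 bp from the TSS. The strongest SOX17-only regions were assigned to Gna12 (14607 bp, chr5:140814235-140817655, SOX17 folds 65.6 and 87.5), Col4a2 (68.5 and 68.0), Mrpl15 (59.7 and 73.3), Gpx2 (75.2 and 55.8) and Lamp5 (52.8 and 78.1). None of the 5 had NANOG at 0 h. Those of Gna12 and Col4a2, the neighbour of Col4a1, had GATA6 at 2 h, SOX2 at 8 h and GATA4 at 24 h in both lists, and that of Gpx2, the gene of a glutathione peroxidase, had none of these. SOX2 at 8 h in both lists was thus at 4 of the 5 SOX2-only and 2 of the 5 SOX17-only regions, unlike the order over the whole classes.

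SOX17-only regions gathered at single genes more than the other classes did by count. Arid5b had 16 of them, Col4a1 15, Smad7, the gene of an inhibitor of TGF-beta signalling, 14, Rgs3 13, and Akap12 and Ubash3b 12 each. SOX2-only regions reached 6 at Auts2, Cd180, Tenm4 and Vgll4, and 5 at Adam12 among others. Shared loci reached 9 at Etl4, 8 at Zfp704 and at Etv5, the gene of an ETS TF, and 7 at Akap2 and Arid5b among others.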

How the data were processed

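CUT&RUN reads were aligned by the authors to mm10 with Bowtie2, blacklisted reads were removed with SAMtools, duplicates (marked with Picard) were kept, and narrow peaks were called with MACS for each sample against a rabbit anti-rabbit control library. The deposited lists give each peak's fold enrichment, a ratio over the local background, and the −log10 of its p-value and q-value, as the authors' peak caller wrote them. Of 30 deposited lists 22 were used, and 8 GATA6 lists were left out, because names inside those of 4, 8 and 48 h disagreed with the labels and 0 h was not needed. Only chromosomes 1 to 19, X and Y were used (2 mitochondrial peaks in each of the 4 lists were dropped). Regions, annotation (GENCODE vM21), sequence windows of 201 bp and exact permutation tests were computed with python 3.11.15, pandas 2.3.3, numpy 2.4.6, scipy 1.17.1 and pysam 0.24.0, and the scripts were tested on simulated data. Samples were grouped by their labels. Named regions are the 5 strongest of each class, the genes with most regions, and the strongest regions of 15 genes fixed by name, of which 1 is not reported here. The members, gene lists and tests were chosen with earlier results of these data known.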

Additional observations from a re-analysis of the deposited data

How the results depend on the processing

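Over 32 results, 184 alternative settings left 115 within the same verdict. In tests of 2 lists against 2 the exact permutation p cannot fall under 0.333. There the same verdict meant only that the difference kept its sign, while its size could change, so the tally does not measure stability. With the top 10000 peaks of every list there were 1903 shared loci, 4479 SOX2-only and 4746 SOX17-only regions, with 27.4% of SOX2 and 25.5% of SOX17 regions shared. With the top 5000 there were 831, 2470 and 2674, and 23.5% and 21.6%. With a −log10 q of at least 5 there were 3604 shared loci, 31.7% and 28.0%. Fewer peaks entered by construction. With the top 10000 the SOX2 fold ratio of shared over only regions was 1.14, and summit distances were 60.8 bp between proteins and 44.5 bp between replicates. The 10-list difference in GATA matches (SOX17 minus SOX2) turned to 0.261 percentage points with the top 10000 peaks and to 1.01 without SOX17 replicate 1, and the cause was not tested. The difference within 1 kb of a TSS was 6.35 points with the top 10000 and 3.09 with all peaks, past the threshold in neither.

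Near genes, a limit of 5 kb gave SOX2-only regions in 23.3% of pluripotency, 4.56% of study PrE and 23.4% of study Epi genes, and SOX17-only regions in 30.0% of pluripotency, 60.0% of PrE, 32.1% of study PrE and 22.0% of study Epi genes. A limit of 100 kb gave SOX17-only regions in 93.3% of PrE genes. The top 10000 peaks gave SOX2-only regions in 14.6% of study PrE and 39.4% of study Epi genes, and SOX17-only regions in 40.0% of pluripotency, 36.8% of study PrE and 22.0% of study Epi genes.

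Leaving out 1 list, so that 1 list alone defined a protein's regions, gave 9191 to 19882 SOX2-only regions (16109 without SOX2 replicate 1, 19882 without replicate 2) and 11395 to 28895 SOX17-only regions (28895 without SOX17 replicate 1, 17132 without replicate 2). The shared part ranged from 25.0% to 46.7% of SOX2 and from 20.1% to 40.8% of SOX17 regions, the fold ratio from 1.148 to 1.46 and from 1.19 to 1.49, and the distance between proteins from 80.5 to 86.5 bp. For only peaks the differences ranged from -0.42 to -0.246 points for canonical, 0.0995 to 0.192 for compressed and 20.5 to 26.5 for GATA matches, 1.2 to 2.79 for GC content and 1.89 to 6.09 for TSS within 1 kb. With 1 SOX17 list left, the 10-list test cannot pass the threshold (adjusted exact p = 0.133 for the 5 measures that passed), and the differences, with SOX17 minus SOX2, were -0.4175 to -0.3975 points for canonical and 0.165 to 0.185 for compressed matches, -3.15 to 1.01 for GATA matches, 2.59 to 2.71 for GC content and 6.05 to 7.29 for TSS within 1 kb, and -0.21 to -0.21 for log10 distance.

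With the replicate block, the peak number difference stayed at 0.22 (log2, exact p = 1), and those in TSS within 1 kb (3.75 points) and GATA matches (29.1 points) had an exact p of 0.500, the smallest that 2 pairs allow. The numbers are shared only as labels.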
